A study of Arabidopsis thaliana with 20 samples.

Results

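The 10 genes described here are ATHB2, ATHB4, HAT3, PIL1, HFR1, PAR1, PRE1, FHL, CKX5 and AT5G02540, which were grouped as shade and warmth genes controlled by PHYTOCHROME INTERACTING FACTORs (PIFs). They were taken by locus identifier from the 36799 genes of the deposited count tables, and all 10 passed the filter on low counts. The members were chosen by name with earlier results of these data in view, and which measured values selected each gene is not recorded, so the tests below may not be fully independent of the choice. The data are poly(A) RNA sequencing of whole green Arabidopsis thaliana seedlings at 5 days of age, with 2 libraries in each of 10 groups. The groups were ein2 (allele ein2-5), ein3 eil1 (ein3-1 eil1-1), lhp1 (lhp1-3), ein2 lhp1 (ein2-5 lhp1-3) and wild type (Col-0), each at 27 °C and at 21 °C. All seedlings were raised at 21 °C in short days on Murashige and Skoog medium with sucrose, and the warm groups were moved to 27 °C for 4 h, between 4 and 8 h after lights on. The time at which the 21 °C seedlings were collected is not given in the labels, so the temperature step and a difference in time of day cannot be told apart. Each mutant is 1 line per the labels, which do not say that the 2 libraries of a group came from separately grown seedlings, so p-values measure only the spread between these libraries, which may be technical.

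PIFs are basic helix-loop-helix (bHLH) transcription factors that phytochrome photoreceptors mark for degradation in the light. In shade, where phytochrome B is less active, and in warmth, which speeds the return of phytochrome B to its inactive form and raises PIF4 activity, PIFs bind G-box and related motifs and turn on genes of stem and petiole elongation. Among their direct targets are inhibitors such as HFR1 and PAR1, which bind PIFs in turn and limit the response. EIN2 is the membrane protein that passes the ethylene signal into the nucleus, EIN3 and EIL1 are the transcription factors it acts through, and LHP1 is a chromatin protein that reads the polycomb mark on histone H3. EIN3 is known to interact with the light pathways in seedlings, so the comparisons ask how PIF target genes stood in each mutant at each temperature.

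Total counts per library lay between 24153109 and 47566071. The transcript of EIN2 averaged 26.9 CPM in ein2 at 27 °C and 85.5 CPM in wild type at 27 °C. Here CPM is the count of a gene relative to the scaled total of its library, as edgeR gives it. EIN3 averaged 32.7 CPM in ein3 eil1 at 27 °C and 105 CPM in wild type, and EIL1 22.4 and 61.6 CPM in the same pair of groups. LHP1 averaged 7.4 CPM in lhp1 and 14.6 CPM in wild type at 27 °C, but 9.43 CPM in lhp1 and 11.6 CPM in wild type at 21 °C, a log2 difference of -0.29 that was not called (adjusted p 0.0774, edgeR). The 5 markers of green tissue summed to 41100 to 79400 CPM over all libraries, and none of the 5 was at 0 in both libraries of a group. The 12 seed maturation markers, which label late embryos, summed to 9.96 to 14 CPM in wild type and to 397 to 434 CPM in ein2, lhp1 and ein2 lhp1 at 21 °C. Of the 12, between 0 and 2 had no count in both libraries of a group. In each mutant at each temperature, 7 to 12 were called higher than in wild type, where 12.6% to 24% of all genes were. The part of these markers in the results below was not tested. In bulk libraries, fewer cells of a type and less RNA per cell cannot be told apart.

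The 10 genes fall into groups by what their proteins do. ATHB2 (AT4G16780, chromosome 4, 9449114 to 9450905), ATHB4 (AT2G44910, chromosome 2, 18517656 to 18519731) and HAT3 (AT3G60390, chromosome 3, 22320580 to 22322661) encode homeodomain-leucine zipper class II factors, and ATHB2 is a classic early shade gene that promotes elongation. PIL1 (AT2G46970, chromosome 2, 19295431 to 19297858) encodes a PIF-like bHLH factor whose transcript is a common readout of shade. HFR1 (AT1G02340, chromosome 1, 465616 to 467880) and PAR1 (AT2G42870, chromosome 2, 17836416 to 17837618) encode helix-loop-helix inhibitors of PIF action. PRE1 (AT5G39860, chromosome 5, 15957368 to 15958559) encodes a small helix-loop-helix protein that promotes cell elongation by binding other inhibitors of that family. FHL (AT5G02200, chromosome 5, 437365 to 439019) helps carry phytochrome A into the nucleus. CKX5 (AT1G75450, chromosome 1, 28314458 to 28318375) encodes a cytokinin oxidase, which breaks cytokinin down. AT5G02540 (chromosome 5, 568425 to 570973) is annotated in RefSeq as a protein of the NAD(P)-binding Rossmann-fold superfamily. Coordinates are those of the deposited tables on TAIR10. CKX5 overlaps UBC16, on the opposite strand, by 665 bp, and the counts were not separated by strand, so its values are uncertain.

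Per kilobase of exon and over all 20 libraries, HAT3 had the highest mean level of the 10 genes, at 12.7 CPM per kb. HFR1 followed at 10.3, PRE1 at 9.08, AT5G02540 at 8.12 and ATHB2 at 7.43 CPM per kb. PAR1 stood at 4.04, ATHB4 at 2.02, CKX5 at 1.07, PIL1 at 0.688 and FHL at 0.629 CPM per kb. The last pair rested on few reads, with 10 to 112 counts per library for PIL1 and 10 to 62 for FHL, and the ranges of their libraries overlapped. The groups spread the genes by different amounts. The highest group mean of AT5G02540 was 12.1 times its lowest, against 4.76 for HFR1, 4.34 for PAR1, 3.84 for PIL1, 3.78 for PRE1, 3.39 for FHL, 2.42 for ATHB2, 1.82 for HAT3 and 1.73 for ATHB4 and CKX5. The highest group was ein3 eil1 at 27 °C for 8 of the 10 genes. The exceptions were PIL1, highest in ein2 at 27 °C, and FHL, highest in ein3 eil1 at 21 °C.

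**Figure D1:**
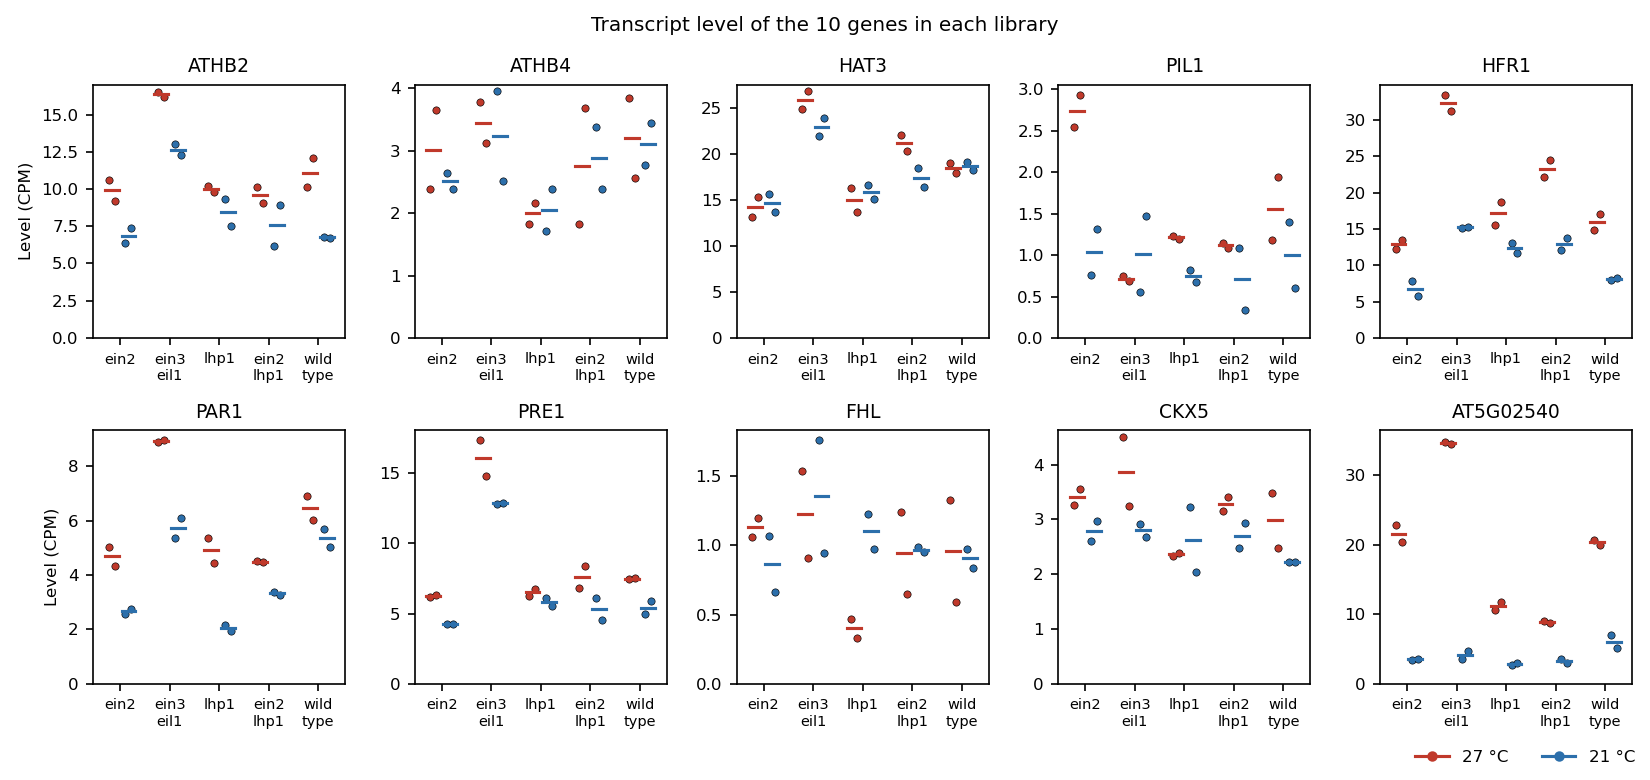
Level of each of the 10 genes in CPM (y axis, starting at 0) in every library, by genotype (x axis), with 27 °C in red and 21 °C in blue. Points are libraries and bars are means of 2. In ein3 eil1 at 27 °C, AT5G02540 reached 34.8 and 34.4 CPM and HFR1 33.5 and 31.3 CPM, above every library of the other groups.

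The upstream sequences were searched for the G-box, CACGTG, and for the PBE-box, CACATG, which reads CATGTG on the other strand. Both are motifs that PIFs are known to bind, the 2 patterns do not overlap each other, and both strands were searched. In the 1000 bases before the annotated gene start, 4 of the 10 genes held a G-box, against 14.8% of 27432 promoters of protein-coding genes, and 6 held a PBE-box, against 37.7%. HFR1, FHL and PAR1 held both motifs, so that 7 of the 10 held at least 1 of them, against 46.3% of all promoters. Within 300 bases, 1 gene held a G-box (7.09% of all promoters) and 1 held a PBE-box (13.0%). ATHB2, PIL1 and ATHB4 had no match in these 1000 bases, which says only that these letters are not in that window.

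**Figure D2:**
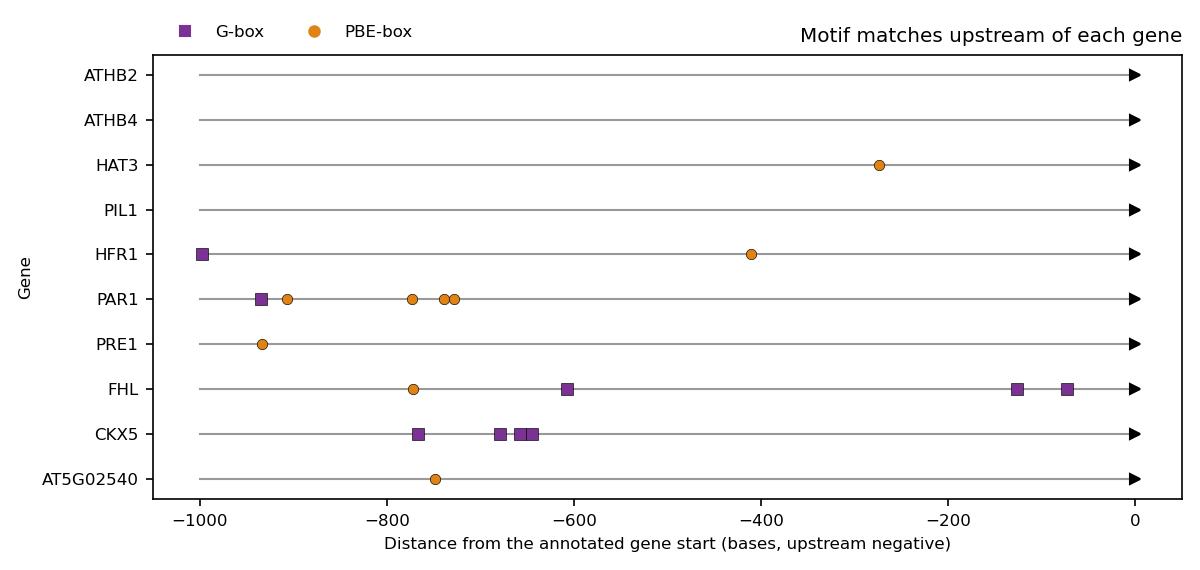
Positions of G-box (purple squares) and PBE-box (orange circles) matches in the 1000 bases upstream of each gene, drawn to scale with the annotated start as a triangle at 0 (x axis, bases). CKX5 held 4 G-boxes between 769 and 643 bases upstream, FHL held 2 within 129 bases of its start, and ATHB2, PIL1 and ATHB4 held none of either motif.

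The stretches around the matches are shown because they hold motifs that PIFs are known to bind. Each runs 5′ to 3′ on the strand of its gene, from the TAIR10.1 sequence of RefSeq, whose gene starts and ends equal those of the count tables for 99.3% to 99.6% of genes per chromosome. Capitals mark the motifs.
HFR1, chr1:468863-468892, minus strand, G-box: gagcccacaaccCACGTGggattttggata
HFR1, chr1:468276-468305, minus strand, PBE-box: tatctctatgttCATGTGtcaaagtggtag
PRE1, chr5:15956420-15956449, plus strand, PBE-box: aagtcatgtcatCACATGgtagttgccttt
AT5G02540, chr5:567662-567691, plus strand, PBE-box: attcactggaaaCATGTGaagaaaggagga
HAT3, chr3:22322921-22322950, minus strand, PBE-box: ttagtaaaacctCACATGaatggatttggg
FHL, chr5:437224-437307, plus strand, 2 G-boxes: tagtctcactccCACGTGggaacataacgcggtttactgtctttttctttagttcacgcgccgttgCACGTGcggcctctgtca
CKX5, chr1:28319006-28319156, minus strand, 4 G-boxes: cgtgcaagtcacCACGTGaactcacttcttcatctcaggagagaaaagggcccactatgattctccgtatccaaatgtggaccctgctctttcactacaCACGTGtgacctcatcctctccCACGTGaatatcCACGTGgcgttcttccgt
PAR1, chr2:17838332-17838567, minus strand, 1 G-box and 4 PBE-boxes: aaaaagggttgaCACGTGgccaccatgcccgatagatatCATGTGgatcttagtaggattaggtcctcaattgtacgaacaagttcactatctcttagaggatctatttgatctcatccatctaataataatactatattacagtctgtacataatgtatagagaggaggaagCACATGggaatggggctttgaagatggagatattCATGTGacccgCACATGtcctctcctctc
The PAR1 stretch lies in an annotated long non-coding RNA gene, AT2G09405, and the other stretches shown overlap no annotated gene. FHL held 1 more G-box and a PBE-box farther upstream, inside the neighbouring gene AT5G02190, which are not shown. In the 8 comparisons of a mutant with wild type, the genes with a motif were called 7 times for AT5G02540, 6 times each for HFR1 and PAR1, 5 times for HAT3, 2 times for PRE1, 1 time for FHL and 0 times for CKX5. Those without a motif were called 2 times for ATHB2 and 1 time each for PIL1 and ATHB4. The counts of FHL and PIL1 are limited by their few reads, and ATHB4 and CKX5 were also low in level. Over these 8 comparisons the share of all genes called was 26.7% to 47%. The calls mix directions, with HFR1 higher 5 times and lower 1 time, and AT5G02540 higher 1 time and lower 6 times. Nothing is read from these counts about the motifs.

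The warming values are given as a description, because the genes were grouped as warmth genes with these data known. The warming calls counted below are for the same reason no independent test of the members. At 27 °C against 21 °C, AT5G02540 and HFR1 were higher in all 5 genotypes, PRE1 in 4, and ATHB2 and PAR1 in 3, counting what passed an adjusted p of 0.05 in edgeR. The members called were 6 of 10 in ein2, all higher, where 27.1% of the 21987 tested genes were called, 11.8% higher and 15.4% lower. In ein3 eil1, 5 were higher, where 36.8% of all genes were called, 16.9% higher and 19.9% lower. In lhp1, 3 were higher and 1 was lower, where 31.7% were called, 16.2% higher and 15.6% lower. In ein2 lhp1, 4 were higher, where 29% were called, 14.3% higher and 14.7% lower. In wild type, 4 were higher, where 39.2% were called, 18.8% higher and 20.3% lower. The median log2 change of the 10 genes was 0.35 in ein3 eil1, 0.54 in ein2, 0.38 in ein2 lhp1, 0.19 in lhp1 and 0.44 in wild type, where the median over all genes was between -0.01 and 0. Nothing is read from these counts. In wild type the 4 genes past the threshold were ATHB2, PRE1, HFR1 and AT5G02540. Without wild type 21 °C replicate 1, PRE1 was not called there (0.35) and PIL1 was (1.36).

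AT5G02540 had the widest warming change. In wild type its level was 20.6 and 20 CPM at 27 °C, against 6.95 and 5.14 CPM at 21 °C, a log2 change of 1.76 ± 0.13 (SE). In ein3 eil1 it was 34.8 and 34.4 CPM at 27 °C, against 3.53 and 4.69 CPM at 21 °C, a log2 change of 3.03 ± 0.13. In ein2 it was 22.8 and 20.3 CPM at 27 °C, against 3.46 and 3.63 CPM at 21 °C, a change of 2.6 ± 0.14. The libraries of both temperatures stood well apart in each of these genotypes. In lhp1 the log2 change was 1.96 ± 0.14 and in ein2 lhp1 1.42 ± 0.16, where the 27 °C libraries reached only 8.68 to 11.8 CPM.

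The PIF inhibitor HFR1 had 14.9 and 17 CPM in wild type at 27 °C, against 7.92 and 8.24 CPM at 21 °C, a log2 change of 0.98 ± 0.12. Its change was 0.93 ± 0.13 in ein2, 1.09 ± 0.11 in ein3 eil1 and 0.86 ± 0.11 in ein2 lhp1. In lhp1 it was smaller, at 0.46 ± 0.11, with 15.6 and 18.7 CPM at 27 °C, against 13 and 11.7 CPM at 21 °C. PAR1, the other inhibitor, changed most in lhp1 and least in wild type. It had 5.36 and 4.45 CPM in lhp1 at 27 °C, against 2.17 and 1.95 CPM at 21 °C, a log2 change of 1.26 ± 0.19, while in wild type it had 6.9 and 6.01 CPM at 27 °C, against 5.7 and 5.03 CPM at 21 °C, a change of 0.27 ± 0.17.

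Of the homeodomain genes, ATHB2 had 10.1 and 12.1 CPM in wild type at 27 °C, against 6.76 and 6.73 CPM at 21 °C, a log2 change of 0.71 ± 0.14. The mutants had changes of 0.52 ± 0.14 in ein2, 0.38 ± 0.13 in ein3 eil1, 0.33 ± 0.15 in ein2 lhp1 and 0.23 ± 0.14 in lhp1. ATHB4 and HAT3 had log2 changes in wild type of 0.05 ± 0.26 and -0.01 ± 0.098, and in the mutants between -0.07 and 0.28, of which that of HAT3 in ein2 lhp1, 0.28 ± 0.1, passed the threshold. That call was lost without ein2 lhp1 21 °C replicate 2 (0.19) or ein2 lhp1 27 °C replicate 1 (0.22), with the gene length trend removed (0.25) and with only the groups compared (0.27). The growth gene PRE1 changed by 0.55 ± 0.16 in ein2, 0.33 ± 0.13 in ein3 eil1, 0.15 ± 0.15 in lhp1, 0.53 ± 0.16 in ein2 lhp1 and 0.46 ± 0.15 in wild type. PIL1 had 2.55 and 2.93 CPM in ein2 at 27 °C, against 0.754 and 1.32 CPM at 21 °C, a change of 1.41 ± 0.41. In ein3 eil1 the sign was the other way, at -0.6 ± 0.45, with libraries that overlapped. FHL had 0.468 and 0.332 CPM in lhp1 at 27 °C, against 1.23 and 0.975 CPM at 21 °C, on 10 to 54 counts per library, and its change in the other genotypes lay between -0.08 and 0.39. CKX5 changed by -0.17 to 0.48, with standard errors of 0.24 to 0.26. Leaving out 1 library weakens the test, so a call can be lost while its estimate hardly moves. With 1 library left out, further warming calls were lost or gained. That of ATHB2 was lost in ein2 without 21 °C replicate 1 (0.42) or 27 °C replicate 1 (0.43), and in ein3 eil1 without 21 °C replicate 2 (0.33) or either 27 °C library (0.36 and 0.39). That of PRE1 was lost in ein3 eil1 without either 21 °C library (0.32 and 0.33) or 27 °C replicate 1 (0.21), and in ein2 lhp1 without 21 °C replicate 2 (0.33) or 27 °C replicate 2 (0.36). That of PIL1 in ein2 was lost without 21 °C replicate 1 (1.06) or 27 °C replicate 2 (1.3), that of HFR1 in lhp1 without 27 °C replicate 2 (0.33), and that of FHL in lhp1 without 21 °C replicate 1 or 27 °C replicate 2 (-1.24 in both cases). In ein2 lhp1, PIL1 was called without 21 °C replicate 1 (1.7) and ATHB2 without 21 °C replicate 2 (0.62). In the authors' deposited tables of the same comparison, 5 members had an adjusted p under 0.05 in ein2, 4 in ein3 eil1, 3 in lhp1, 2 in ein2 lhp1 and 4 in wild type, all of them higher at 27 °C.

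**Figure D3:**
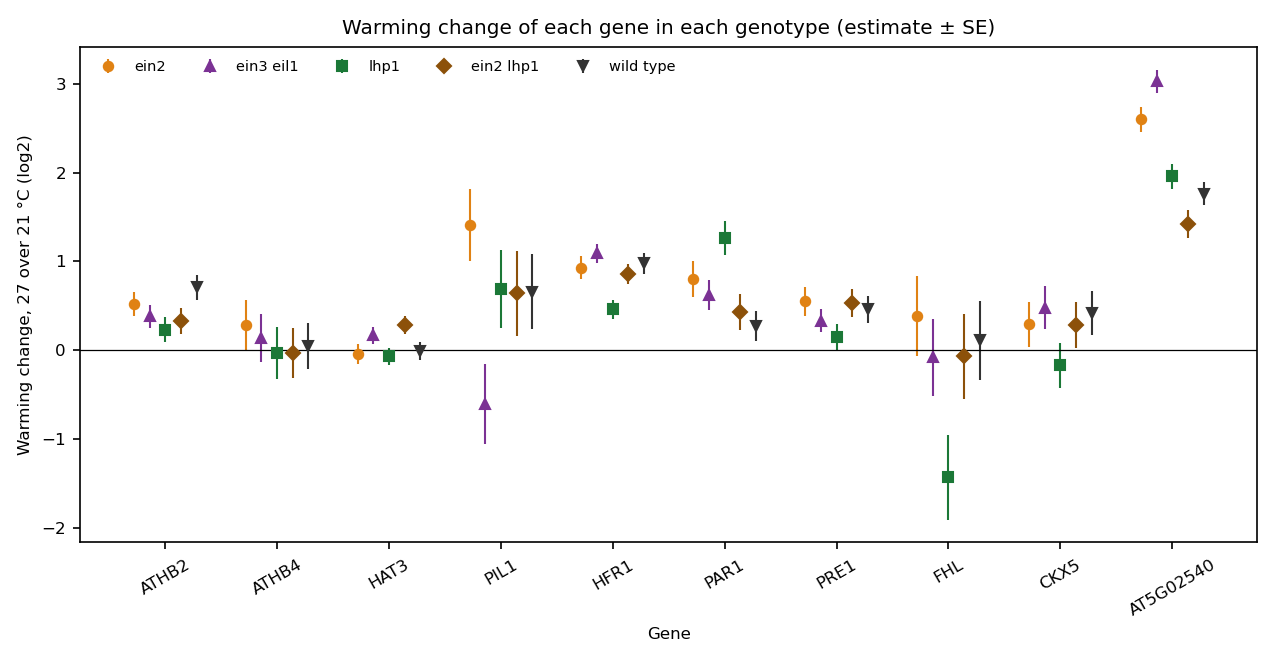
Log2 change at 27 °C over 21 °C (y axis) of each gene (x axis) in each genotype, with the standard error as bar. AT5G02540 lies highest of the 10 genes in every genotype, between 1.42 and 3.03, and ATHB4 and HAT3 lie between -0.07 and 0.28.

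The difference of the warming change between a mutant and wild type was tested for every gene, and it uses the same libraries as the values above. AT5G02540 was called in ein2 and in ein3 eil1. Its change exceeded that of wild type by 0.84 ± 0.19 in ein2 (adjusted p 0.00039, edgeR) and by 1.27 ± 0.19 in ein3 eil1 (adjusted p 2.25e-07, edgeR). The parts of that difference were unlike. In ein2 the 27 °C level of 21.6 ± 1.71 CPM (SD, n = 2) lay beside 20.3 ± 0.41 CPM in wild type, while the 21 °C level was lower, at 3.54 ± 0.122 CPM against 6.05 ± 1.27 CPM. In ein3 eil1 the 27 °C level of 34.6 ± 0.251 CPM was above that of wild type and the 21 °C level of 4.11 ± 0.823 CPM below it. In lhp1 the difference was 0.2, with a 95% interval of -0.18 to 0.59, and in ein2 lhp1 -0.34, with an interval of -0.75 to 0.07. This gene was the only member called in ein2, where 24.1% of all genes were called (11.9% higher, 12.2% lower), and in ein3 eil1, where 9.46% were (4.07% higher, 5.39% lower).

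In lhp1, 2 members were called, against 20.6% of all genes (12.4% higher, 8.25% lower), and they moved in opposite directions. PAR1 changed with warming by 0.98 ± 0.26 more than in wild type (adjusted p 0.00277, edgeR), and HFR1 by 0.52 less, a log2 difference of -0.52 ± 0.16 (adjusted p 0.0126, edgeR). For both genes the 27 °C levels in lhp1 and wild type were closer than the 21 °C levels. HFR1 averaged 17.1 ± 2.17 CPM in lhp1 and 15.9 ± 1.53 CPM in wild type at 27 °C, and 12.4 ± 0.949 CPM in lhp1 and 8.08 ± 0.226 CPM in wild type at 21 °C (SD, n = 2 each). PAR1 averaged 4.91 ± 0.646 CPM in lhp1 and 6.46 ± 0.63 CPM in wild type at 27 °C, and 2.06 ± 0.153 CPM in lhp1 and 5.36 ± 0.473 CPM in wild type at 21 °C. The seed maturation markers moved with the same step, at 48.2 to 51.8 CPM in lhp1 at 27 °C against 431 to 434 CPM in lhp1 at 21 °C, and their part in the result was not tested. ATHB2 had a difference of -0.47 that did not pass (adjusted p 0.073, edgeR). It was called without lhp1 21 °C replicate 2 (-0.61) or wild type 27 °C replicate 1 (-0.6), and with the gene length trend removed (-0.54). FHL had a difference of -1.54 that was not called (adjusted p 0.0866, edgeR), and without wild type 27 °C replicate 2 it was called with -1.99. The HFR1 call was lost without lhp1 21 °C replicate 1 (-0.43), lhp1 27 °C replicate 1 (-0.39) or wild type 27 °C replicate 2 (-0.42).

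In ein2 lhp1, edgeR called 0 of the 10 members, against 16.9% of all genes (10.1% higher, 6.75% lower), and DESeq2 also called 0. At an unadjusted p under 0.05, 1 member stood out, HAT3, with a difference of 0.29. Without ein2 lhp1 21 °C replicate 1, ATHB2 was called with a difference of -0.61.

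In ein3 eil1, which lacks the transcription factors of the ethylene pathway, most of the 10 genes stood above wild type. At 27 °C, 6 members were higher and 1 was lower, where 36.6% of all genes were called, 17.4% higher and 19.2% lower. At 21 °C, 4 were higher and 1 was lower, where 31.5% of all genes were called, 15.2% higher and 16.3% lower. The median log2 difference of the 10 genes was 0.47 at 27 °C and 0.31 at 21 °C, where the median over all genes was 0. PRE1, ATHB2, HFR1 and HAT3 were higher at both temperatures. With 2 libraries a group, the libraries of the groups compared did not overlap for 59.6% to 72% of all genes, over all comparisons, which is the measure for the separations of single members given here.

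PRE1 had 17.4 and 14.8 CPM in ein3 eil1 at 27 °C, against 7.47 and 7.51 CPM in wild type, and 12.8 and 12.9 CPM in ein3 eil1 at 21 °C, against 5 and 5.87 CPM in wild type. Every ein3 eil1 library was above every wild type library, including those of the other temperature. The log2 differences were 1.11 ± 0.14 at 27 °C (adjusted p 2.93e-10, edgeR) and 1.24 ± 0.15 at 21 °C (adjusted p 5.91e-11, edgeR). ATHB2 had 16.5 and 16.2 CPM in ein3 eil1 at 27 °C, against 10.1 and 12.1 CPM in wild type, and 13 and 12.3 CPM in ein3 eil1 at 21 °C, against 6.76 and 6.73 CPM in wild type. Its cool ein3 eil1 libraries thus stood above the warm wild type ones. The log2 differences were 0.56 ± 0.13 at 27 °C (adjusted p 0.000226, edgeR) and 0.9 ± 0.14 at 21 °C (adjusted p 1.59e-07, edgeR).

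HFR1 had 33.5 and 31.3 CPM in ein3 eil1 at 27 °C, against 14.9 and 17 CPM in wild type, a log2 difference of 1.02 ± 0.1 (adjusted p 1.93e-13, edgeR). At 21 °C it had 15.2 and 15.3 CPM in ein3 eil1, against 7.92 and 8.24 CPM in wild type, a log2 difference of 0.91 ± 0.12 (adjusted p 1.21e-09, edgeR). The levels in ein3 eil1 at 21 °C lay between those of the wild type libraries at 27 °C. HAT3 differed by less, with 0.48 ± 0.096 at 27 °C (adjusted p 2.63e-05, edgeR) and 0.3 ± 0.098 at 21 °C (adjusted p 0.013, edgeR). The third homeodomain gene, ATHB4, had differences of 0.1 at 27 °C and 0.01 at 21 °C, with 95% intervals of -0.42 to 0.62 and -0.53 to 0.55.

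AT5G02540 differed in opposite directions by temperature, which is the difference in response given above. At 27 °C it had 34.8 and 34.4 CPM in ein3 eil1, against 20.6 and 20 CPM in wild type, a log2 difference of 0.77 ± 0.11 (adjusted p 1.34e-08, edgeR). At 21 °C it had 3.53 and 4.69 CPM in ein3 eil1, against 6.95 and 5.14 CPM in wild type, a log2 difference of -0.5 ± 0.15 (adjusted p 0.00613, edgeR). The lower level at 21 °C was not called without wild type 21 °C replicate 1 (-0.28) or ein3 eil1 21 °C replicate 1 (-0.35). PAR1 was higher at 27 °C, with 8.89 and 8.97 CPM in ein3 eil1 against 6.9 and 6.01 CPM in wild type, a log2 difference of 0.47 ± 0.17 (adjusted p 0.0203, edgeR), and that call was lost without wild type 27 °C replicate 2 (0.37) or either ein3 eil1 27 °C library (0.46 and 0.47). PIL1 was the 1 member lower at 27 °C. It had 0.745 and 0.682 CPM in ein3 eil1, against 1.18 and 1.94 CPM in wild type, a log2 difference of -1.12 ± 0.43 on 24 to 66 counts (adjusted p 0.0348, edgeR). It was not called without wild type 27 °C replicate 2 (-0.73) or either ein3 eil1 27 °C library (-1.18 and -1.06), nor in DESeq2 (-1.12, adjusted p 0.0507). The HAT3 call at 21 °C was lost without wild type 21 °C replicate 2 (0.26) or ein3 eil1 21 °C replicate 2 (0.23).

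The green tissue markers stood higher in ein3 eil1 as well, at 59000 CPM in both libraries at 27 °C, against 42400 to 42500 CPM in wild type, and at 77300 to 78300 CPM against 55800 to 56000 CPM at 21 °C. Of the 5 genes, 4 were higher and 1 lower at 27 °C, and 5 were higher at 21 °C. Of the 4 root markers, 4 were lower at 27 °C, with a median log2 difference of -0.96, and 3 were lower at 21 °C, with a median of -0.61. The 9 clock genes summed to 539 to 543 CPM in ein3 eil1 at 27 °C, against 433 to 434 CPM in wild type. Of these 9 genes, 6 were higher and 2 lower at 27 °C, and 6 higher and 1 lower at 21 °C. Over all genes, 17.4% were higher and 19.2% lower in ein3 eil1 at 27 °C, and 15.2% and 16.3% at 21 °C. The seed maturation markers summed to 85.6 to 88.2 CPM in ein3 eil1 at 27 °C and 94.7 to 96.8 CPM at 21 °C. The part of tissue make-up or time of day in these differences was not tested.

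**Figure D4:**
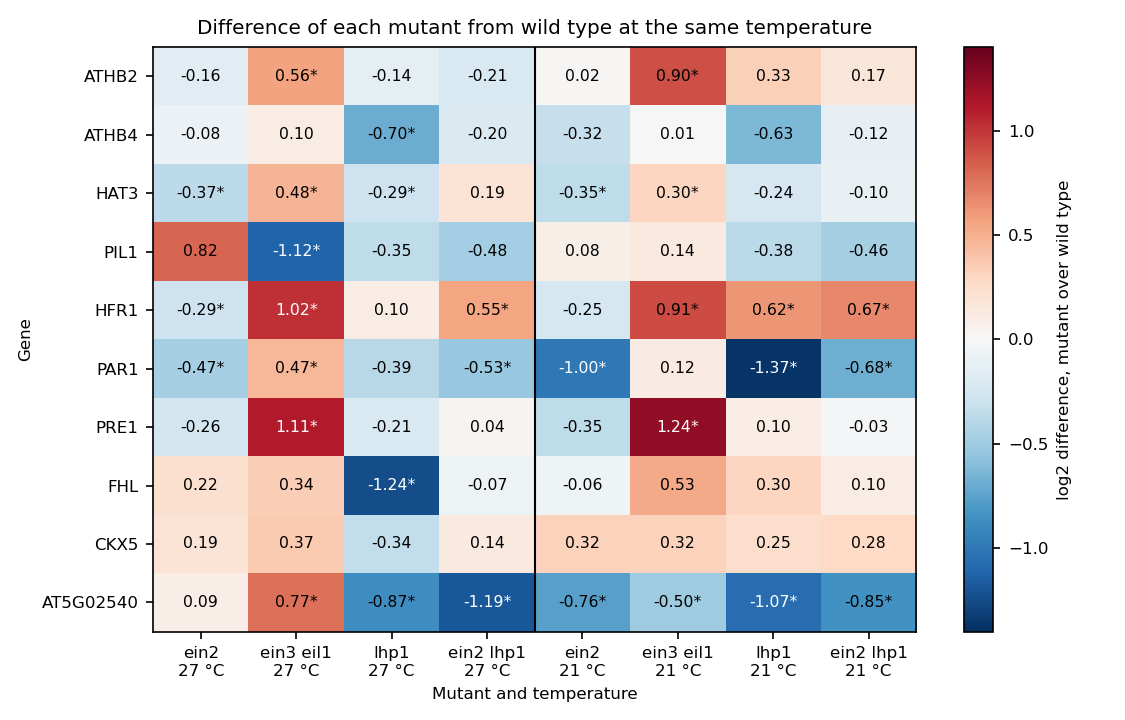
Log2 difference of each mutant from wild type at the same temperature for each gene, with red for higher and blue for lower in the mutant and an asterisk for an adjusted p under 0.05 in edgeR. The columns of ein3 eil1 are mostly red, with PRE1 at 1.11 and 1.24, and AT5G02540 is blue in 6 of 8 columns with an asterisk.

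In ein2, which blocks the same pathway further up, the members called were all lower than wild type. At 27 °C these were HFR1, PAR1 and HAT3, where 38.1% of all genes were called, 19.8% higher and 18.3% lower. At 21 °C they were AT5G02540, PAR1 and HAT3, where 35.9% were called, 18.5% higher and 17.4% lower. A count of 3 of 10 is thus close to the share over all genes. The median log2 difference of the members was -0.12 at 27 °C and -0.28 at 21 °C. PIL1 lay above wild type at 27 °C by 0.82 but was not called (95% interval 0.05 to 1.6, adjusted p 0.0888, edgeR). It was called higher with no low count filter (0.82), counts divided by 2 (0.84) or only the groups compared (0.83).

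PAR1 had 5.04 and 4.34 CPM in ein2 at 27 °C, against 6.9 and 6.01 CPM in wild type, and 2.58 and 2.77 CPM in ein2 at 21 °C, against 5.7 and 5.03 CPM in wild type. The libraries stood apart at both temperatures. The log2 differences were -0.47 ± 0.18 at 27 °C (adjusted p 0.0267, edgeR) and -1.0 ± 0.19 at 21 °C (adjusted p 1.33e-05, edgeR). HAT3 had 13.2 and 15.3 CPM in ein2 at 27 °C, against 19 and 18 CPM in wild type, and 15.7 and 13.7 CPM in ein2 at 21 °C, against 19.2 and 18.3 CPM in wild type. The log2 differences were -0.37 ± 0.1 at 27 °C (adjusted p 0.00198, edgeR) and -0.35 ± 0.1 at 21 °C (adjusted p 0.00407, edgeR). HFR1 differed by -0.29 ± 0.11 at 27 °C (adjusted p 0.0302, edgeR), and AT5G02540 by -0.76 ± 0.15 at 21 °C (adjusted p 4.16e-05, edgeR). Leaving out 1 library ended the calls at 27 °C for HFR1 (-0.2 without wild type 27 °C replicate 2, -0.23 without ein2 27 °C replicate 1), PAR1 (-0.36 without wild type 27 °C replicate 1 or ein2 27 °C replicate 2) and HAT3 (-0.28 without ein2 27 °C replicate 1), and at 21 °C for HAT3 (-0.26 without ein2 21 °C replicate 2). Without ein2 21 °C replicate 1, HFR1 was called at 21 °C with -0.5.

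PRE1 and ATHB2, which were raised in ein3 eil1, were not called in ein2. PRE1 differed by -0.26 at 27 °C, with a 95% interval of -0.56 to 0.04, but was called with the gene length trend removed (-0.48, adjusted p 0.00801, edgeR). At 21 °C it differed by -0.35, with an interval of -0.68 to -0.03. ATHB2 differed by -0.16 at 27 °C (interval -0.43 to 0.11) and by 0.02 at 21 °C (interval -0.27 to 0.31). The seed maturation markers summed to 264 to 279 CPM in ein2 at 27 °C. The 4 root markers summed to 4450 to 4490 CPM in ein2 at 27 °C, against 3190 to 3210 CPM in wild type, but 1 of them was higher and 3 were lower, with a median log2 difference of -0.62. The 9 clock genes summed to 328 to 331 CPM in ein2 at 27 °C, against 433 to 434 CPM in wild type, with 0 higher and 6 lower, and to 362 CPM in ein2 at 21 °C, against 406 to 412 CPM in wild type, with 0 higher and 5 lower. Over all genes, 19.8% were higher and 18.3% lower in ein2 at 27 °C, and 18.5% and 17.4% at 21 °C. The part of these markers in the differences was not tested.

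The ethylene mutants were therefore set against each other in a comparison added after these values had been seen. It was chosen from differences in the same libraries, so its calls and p-values are no independent test. At 27 °C, ein3 eil1 was above ein2 for PRE1, HFR1, PAR1, HAT3, ATHB2 and AT5G02540 and below it for PIL1, 7 members in all, where 47.8% of all genes were called, 22.7% higher and 25.1% lower. At 21 °C it was above ein2 for PRE1, HFR1, PAR1, ATHB2 and HAT3, where 44.9% of all genes were called, 21% higher and 23.9% lower. PRE1 averaged 16.1 ± 1.85 CPM in ein3 eil1 and 6.25 ± 0.0696 CPM in ein2 at 27 °C, a log2 difference of 1.37 ± 0.14, and 12.9 ± 0.0556 CPM in ein3 eil1 and 4.27 ± 0.0326 CPM in ein2 at 21 °C, a log2 difference of 1.59 ± 0.15 (SD, n = 2 each). PIL1 had 0.745 and 0.682 CPM in ein3 eil1 at 27 °C, against 2.55 and 2.93 CPM in ein2, a log2 difference of -1.94 ± 0.42. The PIL1 libraries stood far apart, and the sign was opposite to that of the other 6 called members. These differences passed the threshold (adjusted p 7.24e-05 for PIL1 at 27 °C and 1.97e-14 for PRE1 at 21 °C, edgeR), and leaving out any 1 library kept the number called at 7 and 5.

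In lhp1 at 27 °C the members that differed were all lower than wild type, namely AT5G02540, HAT3, FHL and ATHB4, where 26.7% of all genes were called, 14.3% higher and 12.5% lower. At 21 °C, AT5G02540 and PAR1 were lower and HFR1 was higher, where 28.3% of all genes were called, 12.6% higher and 15.7% lower. The median log2 difference was -0.35 at 27 °C, with 9 of 10 members below 0, and -0.07 at 21 °C, with 5 of 10 below 0.

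AT5G02540 had 10.6 and 11.8 CPM in lhp1 at 27 °C, against 20.6 and 20 CPM in wild type, and 2.74 and 2.99 CPM in lhp1 at 21 °C, against 6.95 and 5.14 CPM in wild type. The groups did not overlap at either temperature. The log2 differences were -0.87 ± 0.12 at 27 °C (adjusted p 4.95e-09, edgeR) and -1.07 ± 0.15 at 21 °C (adjusted p 2.71e-08, edgeR). PAR1 had 2.17 and 1.95 CPM in lhp1 at 21 °C, against 5.7 and 5.03 CPM in wild type, a log2 difference of -1.37 ± 0.19 (adjusted p 1.29e-08, edgeR), while at 27 °C its difference of -0.39 did not pass (adjusted p 0.0878, edgeR). HFR1 had 13 and 11.7 CPM in lhp1 at 21 °C, against 7.92 and 8.24 CPM in wild type, a log2 difference of 0.62 ± 0.12 (adjusted p 1.84e-05, edgeR). At 27 °C its difference was 0.1, with an interval of -0.12 to 0.31. The inhibitors HFR1 and PAR1 thus stood on opposite sides of wild type in the same cool lhp1 libraries.

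The other 3 calls in lhp1 at 27 °C were weak. FHL differed by -1.24 ± 0.48 on 10 to 54 counts (adjusted p 0.0469, edgeR), ATHB4 by -0.7 ± 0.27 (adjusted p 0.0468, edgeR) and HAT3 by -0.29 ± 0.1 (adjusted p 0.0199, edgeR). None of the 3 was called without wild type 27 °C replicate 1, with values of -0.52, -0.37 and -0.25. Leaving out lhp1 27 °C replicate 2 also ended all 3 calls (-1.05, -0.81 and -0.18), and leaving out replicate 1 of that group ended those of FHL (-1.54) and ATHB4 (-0.58). At 21 °C, ATHB4 had a difference of -0.63 (adjusted p 0.0786, edgeR) and HAT3 of -0.24 (adjusted p 0.0608, edgeR), which did not pass, and without lhp1 21 °C replicate 2 ATHB2 was called with 0.47. The seed maturation markers summed to 48.2 to 51.8 CPM in lhp1 at 27 °C, against 9.96 to 13.3 CPM in wild type. At 21 °C the green tissue markers summed to 41300 to 42100 CPM in lhp1, against 55800 to 56000 CPM in wild type. All 5 were lower there, where 15.7% of all genes were. At 27 °C, 1 was higher and 3 were lower, where 14.3% of all genes were higher and 12.5% lower. The part of these markers was not tested.

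In ein2 lhp1, HFR1 was above and AT5G02540 and PAR1 were below wild type at both temperatures. These 3 members were called where 47% of all genes were called at 27 °C (24% higher, 23% lower) and 33.8% at 21 °C (17.6% higher, 16.1% lower). Nothing is read from a count of 3 of 10, which is close to the share at 21 °C. HFR1 had 22.1 and 24.5 CPM in ein2 lhp1 at 27 °C, against 14.9 and 17 CPM in wild type, a log2 difference of 0.55 ± 0.11 (adjusted p 1.7e-05, edgeR). At 21 °C it had 12.1 and 13.7 CPM in ein2 lhp1, against 7.92 and 8.24 CPM in wild type, a log2 difference of 0.67 ± 0.12 (adjusted p 4.81e-06, edgeR). The libraries stood apart in both cases. AT5G02540 had 9.09 and 8.68 CPM in ein2 lhp1 at 27 °C, against 20.6 and 20 CPM in wild type, a log2 difference of -1.19 ± 0.13 (adjusted p 5.56e-13, edgeR). At 21 °C it had 3.63 and 3 CPM in ein2 lhp1, against 6.95 and 5.14 CPM in wild type, a log2 difference of -0.85 ± 0.16 (adjusted p 7.88e-06, edgeR). PAR1 differed by -0.53 ± 0.18 at 27 °C (adjusted p 0.0133, edgeR) and by -0.68 ± 0.19 at 21 °C (adjusted p 0.00246, edgeR). Its call at 27 °C was lost without wild type 27 °C replicate 1 (-0.42) or either ein2 lhp1 27 °C library (-0.53 in both cases). With the gene length trend removed, PRE1 (-0.37 in place of 0.04) and ATHB2 (-0.34 in place of -0.21) were also called lower at 27 °C. The seed maturation markers were at their highest here, at 727 to 747 CPM in ein2 lhp1 at 27 °C, and green markers at 72700 to 75500 CPM, against 42400 to 42500 CPM in wild type. Their part was not tested.

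Set against ein2, ein2 lhp1 differed at 27 °C in 4 members, where 37.4% of all genes were called, 19.1% higher and 18.3% lower. HFR1 was higher by 0.85 ± 0.11 (adjusted p 1.99e-09, edgeR) and HAT3 by 0.56 ± 0.1 (adjusted p 8.1e-06, edgeR). AT5G02540 was lower by a log2 difference of -1.28 ± 0.13, at 8.89 ± 0.288 CPM in ein2 lhp1 and 21.6 ± 1.71 CPM in ein2 (adjusted p 7.26e-14, edgeR). PIL1 was also lower, at 1.15 and 1.09 CPM in ein2 lhp1 against 2.55 and 2.93 CPM in ein2, a log2 difference of -1.3 ± 0.42 (adjusted p 0.0103, edgeR), a call that was lost without ein2 27 °C replicate 2 (-1.19) or ein2 lhp1 27 °C replicate 2 (-1.26). At 21 °C, HFR1 was the 1 member called, where 36.8% of all genes were (17.9% higher, 19% lower), with a difference of 0.92 ± 0.13 (adjusted p 6.36e-09, edgeR). The level of HFR1 in ein2 lhp1 at 21 °C, 12.9 ± 1.12 CPM, lay beside that of lhp1, 12.4 ± 0.949 CPM, and apart from that of ein2, 6.8 ± 1.54 CPM (SD, n = 2 each).

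Set against lhp1, ein2 lhp1 differed at 27 °C in 3 members, where 34.4% of all genes were called (18.6% higher, 15.9% lower), with HFR1 higher by 0.45 ± 0.11 (adjusted p 0.000501, edgeR), HAT3 higher by 0.48 ± 0.1 (adjusted p 9.64e-05, edgeR) and AT5G02540 at -0.32 ± 0.13 (adjusted p 0.0464, edgeR). The AT5G02540 call was lost without lhp1 27 °C replicate 2 (-0.25) or either ein2 lhp1 27 °C library (-0.36 and -0.29), and that of HFR1 without lhp1 27 °C replicate 1 (0.32). Without ein2 lhp1 27 °C replicate 1 ATHB4 was called (0.9), and without replicate 2 FHL (1.59). At 21 °C, PAR1 alone was called, where 35.9% of all genes were (19.3% higher, 16.6% lower), with a difference of 0.69 ± 0.21 (adjusted p 0.0058, edgeR) that was lost without lhp1 21 °C replicate 2 (0.62).

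The members followed each other to different degrees over the 10 group means of log2 CPM. Of the 45 pairs of members, 23 had a Pearson r above 0.5 and 5 had one below 0, with a median of 0.5 and a range of -0.43 to 0.94. ATHB2 and PRE1 had the highest r, and HAT3 and PIL1 the lowest. The groups share libraries, scaling and the same few genotypes, so these values are descriptions. Among 17495 genes with a mean of at least 2 CPM, those whose profile was most like the mean profile of the members were AT2G41440 (agamous-like MADS-box protein, r of 0.979), AT5G20450 (myosin, 0.97), AT5G66050 (wound-responsive family protein, 0.969), IAA29 (0.968) and AT2G04940 (scramblase-like protein, 0.95). IAA29 encodes a repressor of auxin-responsive genes. It averaged 18.1 ± 2.18 CPM in ein3 eil1 at 27 °C, 8 ± 0.548 CPM in ein3 eil1 at 21 °C, 5.51 ± 0.162 CPM in wild type at 27 °C and 3.46 ± 0.763 CPM in wild type at 21 °C. For single members, the closest gene was PP2-A1 for PRE1 (r of 0.975), AT4G04630 for HFR1 (0.984), IAA16 for AT5G02540 (0.968), AMK2 for HAT3 (0.967), AT1G80380 for PAR1 (0.966), AT5G03220 for ATHB2 (0.961), AT1G22950 for PIL1 (0.951), NAMT1 for CKX5 (0.946), AT4G36470 for ATHB4 (0.914) and CVP2 for FHL (0.878).

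The transcripts of the PIF factors themselves were examined beside their targets. The PIF list was also chosen with results of these data known, so the warming p-value of PIF4 is no independent test. PIF4, the factor best known for warmth, averaged 99.5 ± 1.55 CPM in wild type at 27 °C and 66.7 ± 0.717 CPM at 21 °C, a log2 change of 0.58 ± 0.049 (adjusted p 1.41e-16, edgeR). In lhp1 it averaged 75.3 ± 5.2 CPM at 27 °C and 75 ± 2.26 CPM at 21 °C, with libraries that overlapped. Its warming change was smaller than in wild type in every mutant, by differences of -0.35 ± 0.07 in ein2 (adjusted p 7.6e-05, edgeR), -0.3 ± 0.068 in ein3 eil1 (adjusted p 0.000991, edgeR), -0.42 ± 0.07 in ein2 lhp1 (adjusted p 2.52e-06, edgeR) and -0.57 ± 0.07 in lhp1 (adjusted p 3.58e-10, edgeR). The level of PIF4 was nonetheless highest in ein3 eil1, at 140 ± 1.63 CPM at 27 °C and 116 ± 6.22 CPM at 21 °C, above wild type by 0.49 ± 0.047 (adjusted p 1.96e-14, edgeR) and 0.8 ± 0.049 (adjusted p 3.06e-23, edgeR). PIF5 was also higher in ein3 eil1, by 0.38 ± 0.048 at 27 °C (adjusted p 3.72e-10, edgeR) and 0.3 ± 0.049 at 21 °C (adjusted p 3.95e-07, edgeR).

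PIF7, known for its part in shade, was lower at 27 °C than at 21 °C in all 5 genotypes, with 21.3 ± 0.843 CPM at 27 °C and 26.4 ± 0.562 CPM at 21 °C in wild type. It was above wild type in ein3 eil1 by 0.36 ± 0.086 at 27 °C (adjusted p 0.000469, edgeR) and 0.59 ± 0.084 at 21 °C (adjusted p 1.52e-08, edgeR), and below it in lhp1 by a log2 difference of -0.62 ± 0.091 at 27 °C (adjusted p 6.05e-08, edgeR). The warming change of PIF7 differed from that of wild type in lhp1 by -0.39 ± 0.13 (adjusted p 0.0159, edgeR) and in ein2 lhp1 by -0.62 ± 0.13 (adjusted p 0.000131, edgeR). PIF3, by contrast, was below wild type in ein3 eil1, at 12.5 CPM against 29 CPM at 27 °C, a log2 difference of -1.21 ± 0.091 (adjusted p 4.5e-19, edgeR). Of the 7 PIF genes, 3 were higher and 1 lower in ein3 eil1 at 27 °C, 6 were lower in ein2, 3 lower in lhp1 and 4 lower in ein2 lhp1, the last count including PIF6, which had 0 counts in both ein2 lhp1 libraries and at most 11 in any other. At 21 °C the counts of PIF genes were 1 higher and 3 lower in ein2, 3 and 2 in ein3 eil1, and 2 and 2 in both lhp1 and ein2 lhp1. Over these comparisons 26.7% to 47% of all genes were called, and nothing is read from the counts.

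**Figure D5:**
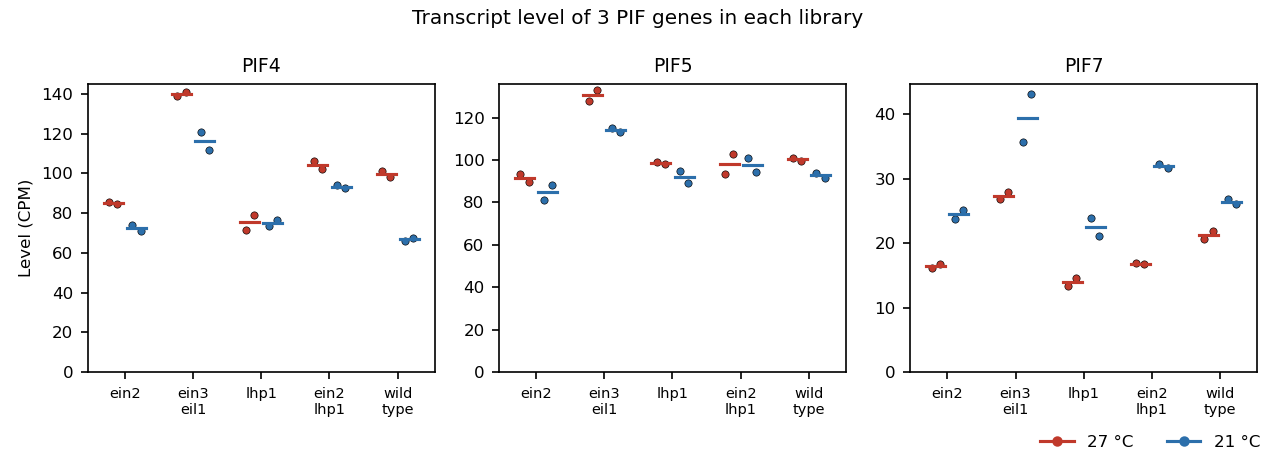
Level of PIF4, PIF5 and PIF7 in CPM (y axis, starting at 0) in every library, by genotype (x axis), with 27 °C in red and 21 °C in blue and bars for means of 2. The PIF4 libraries of lhp1 overlap between temperatures, those of wild type do not, and ein3 eil1 is highest for all 3 genes at each temperature.

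Relatives of the members were counted from lists of known genes. Of the 7 other class II homeodomain genes, 4 were higher and 0 lower in ein3 eil1 at 27 °C, with a median log2 difference of 0.61, where the median of all genes was 0. HAT2 averaged 53.9 CPM in ein3 eil1 and 26.9 CPM in wild type, a log2 difference of 1.0 ± 0.071 (adjusted p 2.52e-20, edgeR), and HAT1 47.2 and 25.7 CPM in the same groups, a log2 difference of 0.88 ± 0.077 (adjusted p 4.63e-16, edgeR). In ein2 at 27 °C 1 was higher, in ein2 lhp1 2 and in lhp1 1, with 0 lower in these 3 mutants, and the gene in ein2 was HAT2, at 0.4 ± 0.073 (adjusted p 6.14e-06, edgeR). At 21 °C the counts were 0 higher and 3 lower in ein2 and 1 and 1 in ein3 eil1. They were 1 and 0 in ein2 lhp1 and 1 and 2 in lhp1. Over these comparisons, 12.6% to 24% of all genes were higher and 12.5% to 23% lower, and nothing is read from the counts. The warming change of HAT2 exceeded that of wild type in all 4 mutants, by 0.34 in ein2, 0.92 in ein3 eil1, 0.42 in ein2 lhp1 and 0.41 in lhp1 (adjusted p 9.51e-11 to 0.00916, edgeR).

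Of the 11 other helix-loop-helix growth genes, 4 were higher and 2 lower in ein3 eil1 at 27 °C, 1 higher and 6 lower in ein2, 1 higher and 2 lower in lhp1, and 1 higher and 5 lower in ein2 lhp1. At 21 °C, 8 were lower in ein2, 4 in ein2 lhp1 and 4 in lhp1 with 0 higher. In ein3 eil1 at 21 °C, 3 were higher and 2 lower. The share of all genes in these comparisons was 12.6% to 24% higher and 12.5% to 23% lower. Nothing is read from these counts. The bHLH gene BEE3, which brassinosteroid is known to induce, was below wild type in the 3 genotypes with a block in ethylene signalling. At 27 °C, BEE3 averaged 4.27 CPM in ein2, 3.95 CPM in ein3 eil1 and 3.59 CPM in ein2 lhp1, against 17.4 CPM in wild type, with log2 differences of -2.03 ± 0.15, -2.14 ± 0.15 and -2.26 ± 0.16 (adjusted p at most 2.36e-19, edgeR). HBI1, a growth-promoting bHLH gene, changed with warming by 0.46 less than in wild type in lhp1 (-0.46 ± 0.079, adjusted p 2.95e-06, edgeR), as HFR1 did.

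Among 10 further shade and warmth targets, 9 were tested, and IAA29, named above, is among them. At 27 °C against 21 °C, 8 of the 9 were higher in ein2, 9 in ein3 eil1, 6 in lhp1, 5 in ein2 lhp1 and 5 in wild type, with 0 lower. Of all genes, 11.8% were higher in ein2, 16.9% in ein3 eil1, 16.2% in lhp1, 14.3% in ein2 lhp1 and 18.8% in wild type. The list was picked as warmth genes with results of these data known, so nothing is read from these warming counts. Against wild type at 27 °C, 5 were higher and 2 lower in ein3 eil1, 5 higher and 1 lower in ein2, 0 higher and 4 lower in lhp1, and 4 higher and 2 lower in ein2 lhp1. IAA29 was above wild type in ein3 eil1 by 1.71 ± 0.17 (adjusted p 6.35e-14, edgeR) and below it in lhp1 by a log2 difference of -1.19 ± 0.19 (adjusted p 8.17e-07, edgeR). ACS8, which encodes an enzyme of ethylene synthesis, averaged 14.6 CPM in ein2 and 8.83 CPM in ein3 eil1, against 0.649 CPM in wild type. IAA19, an auxin response gene, averaged 23.5 CPM in ein2 and 10.3 CPM in wild type, a log2 difference of 1.19 ± 0.11 (adjusted p 1.89e-14, edgeR). ST2A, which encodes a sulfotransferase of the jasmonate pathway, was lower in all 4 mutants, by differences of -0.48 ± 0.19 in ein2 (a value added after it was seen), -1.48 ± 0.2 in ein3 eil1, -1.49 ± 0.21 in ein2 lhp1 and -1.13 ± 0.2 in lhp1 (adjusted p at most 0.0383, edgeR). At 21 °C the counts were 3 higher and 1 lower in ein2 and 4 and 1 in ein3 eil1. They were 2 and 2 in ein2 lhp1 and 0 and 3 in lhp1. Over the comparisons with wild type, 12.6% to 24% of all genes were higher and 12.5% to 23% lower. Nothing is read from these counts either. In ein2 at 27 °C the median log2 difference of these targets was 0.44, that of the 10 genes -0.12.

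FHL was set beside 5 genes of phytochrome A import and related light signalling, a list that also holds the gene of phytochrome B. Of these 5 genes, 4 were lower in ein2, ein3 eil1 and ein2 lhp1 at 27 °C and 2 in lhp1, with 0 higher. The share of all genes lower there was 18.3% in ein2, 19.2% in ein3 eil1, 23% in ein2 lhp1 and 12.5% in lhp1. At 21 °C, 3 were higher and 1 lower in ein2, 2 lower in ein3 eil1, 2 higher in lhp1 and 1 lower in ein2 lhp1. At that temperature 12.6% to 18.5% of all genes were higher and 15.7% to 17.4% lower. With 5 genes in the list, nothing is read from these counts. PHYA, the photoreceptor gene, averaged 95 CPM in ein3 eil1 and 151 CPM in wild type at 27 °C, a log2 difference of -0.66 ± 0.05 (adjusted p 2.86e-19, edgeR). FAR1, which encodes a factor that activates FHL and FHY1, differed by -0.43 ± 0.1 in ein2, -0.34 ± 0.1 in ein3 eil1, -0.55 ± 0.11 in ein2 lhp1 and -0.41 ± 0.1 in lhp1 (adjusted p at most 0.00521, edgeR). FHL itself was called in lhp1 alone. Of the 6 other cytokinin oxidase genes 4 were tested, and CKX4 was higher at 27 °C in ein2 by 1.17 ± 0.25 (adjusted p 9.01e-05, edgeR) and in ein3 eil1 by 1.49 ± 0.24 (adjusted p 5.14e-07, edgeR). CKX5 was called in none of the 8 comparisons of a mutant with wild type, with log2 differences of -0.34 to 0.37 and standard errors of 0.23 to 0.25.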

How the data were processed

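The deposited values were gene counts in 5 tables, 1 per genotype, with 4 libraries each. Per the file headers, the authors counted reads with featureCounts 2.0.3 on an Araport11 annotation, without strand and without counting pairs, so mates counted singly. Of counts from 5 to 50, 78.2% to 83.6% were even, against 50% expected of single reads. A fragment could thus add both its mates, so counts exceed the number of fragments. Per the submitters' processing notes, the tools were FastQC, Trim Galore, STAR, featureCounts, Subread 2.0.1 and DESeq2 on TAIR10. The count columns read 22 and 28 where the labels read 21 and 27 °C, and the temperatures of the labels are used. The authors' deposited tables of log2 fold changes and adjusted p-values were used for 1 comparison of counts.

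The counts were fitted with edgeR 4.0.16 in R 4.3.3 (filterByExpr, TMM scaling, quasi-likelihood test) with 10 group means over 20 libraries, and p-values were adjusted by the Benjamini-Hochberg method over 21987 genes. A gene is called at an adjusted p under 0.05. Standard errors come from the fold change and its F statistic. The fit was tested on simulated data. DESeq2 1.42.0, other scalings and filters, and leaving out each library were alternatives. Motifs were searched with Python 3.11.15. Total counts of 24153109 to 47566071 set the precision, which is lowest for PIL1 and FHL. Mutants share the wild type libraries, and differences of response share libraries with the warming changes.

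The 10 genes and all lists were chosen with earlier results of these data known, so tests against wild type may not be independent of the choice. Besides the 10 members, the text names, per list and comparison, up to 3 called genes with the largest absolute log2 difference, PIF4, PIF5 and PIF7, the 5 genes most like the members in profile and the 1 gene most like each member. The comparison of ein3 eil1 with ein2 was added after values had been seen. Replicate numbers did not pair the libraries.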

Additional observations from a re-analysis of the deposited data

Results flagged for a closer look

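There were 10 results that differed between genotypes under the same contrast, by the edgeR test of the difference in warming change between a mutant and wild type. For AT5G02540 the warming change was larger than in wild type by 0.84 in ein2 and by 1.27 in ein3 eil1. In lhp1, HFR1 differed by -0.52 and PAR1 by 0.98. For PIF4 the differences were -0.35 in ein2, -0.3 in ein3 eil1, -0.42 in ein2 lhp1 and -0.57 in lhp1. For PIF7 they were -0.62 in ein2 lhp1 and -0.39 in lhp1. All values are log2 differences, and all 4 mutants were set against the same 4 wild type libraries. No group had enough libraries to look for a library that stood apart within it.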

How the results depend on the processing

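The calls of ATHB2, PRE1 and HFR1 in ein3 eil1 against wild type at both temperatures, of AT5G02540 in the response of ein2 and ein3 eil1, and of PAR1 in the response of lhp1 held under every alternative run. The number of members called moved with other settings as follows. With the gene length trend removed, with and without the replicate block, it was 5 in place of 3 for ein2 lhp1, 4 in place of 3 for ein2, 6 in place of 7 for ein3 eil1 and 5 in place of 4 for lhp1, each against wild type at 27 °C, 3 in place of 4 for warming in ein2 lhp1 and 3 in place of 2 for the response of lhp1. There PRE1 in ein2 lhp1 against wild type at 27 °C was called with the sign reversed, at -0.37 in place of 0.04. ATHB2 was called in the same comparison, at -0.34 in place of -0.21 (adjusted p at most 0.043 for both genes, edgeR). With only the groups compared it was 5 in place of 3 for lhp1 against wild type at 21 °C, 3 in place of 4 for lhp1 and 4 in place of 3 for ein2 against wild type at 27 °C, and 3 in place of 4 for warming in ein2 lhp1. For ein2 lhp1 against lhp1 at 27 °C it was 2 in place of 3 with only the groups compared, the DESeq2 test, no low count filter or counts divided by 2, and for ein2 against wild type at 27 °C 4 with the last pair of settings. The DESeq2 test gave 6 in place of 7 for ein3 eil1 and 3 in place of 4 for lhp1 against wild type at 27 °C, and 4 in place of 5 for warming in ein3 eil1, as did DESeq2 size factors, no low count filter and the replicate block. For lhp1 against wild type at 21 °C it was 4 with no low count filter or without ribosomal RNA region genes. For ein2 lhp1 against ein2 at 21 °C it was 2, in place of 1, with DESeq2 size factors, with at least 1 CPM in 2 libraries, and without ribosomal RNA region genes. The cause was not tested.

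Leaving out 1 library gave these numbers called. For warming they were 4 to 6 in ein2, 3 to 4 in ein3 eil1, 2 to 4 in lhp1, 3 to 5 in ein2 lhp1 and 4 in wild type. Against wild type at 27 °C they were 1 to 2 in ein2, 5 to 7 in ein3 eil1, 1 to 4 in lhp1 and 2 to 3 in ein2 lhp1, and at 21 °C 2 to 4, 4, 3 to 4 and 3. For the response they were 1, 1, 1 to 3 and 0 to 1 in the same order of mutants. For ein2 lhp1 they were 3 to 4 against ein2 and 2 to 3 against lhp1 at 27 °C, and 1 to 3 and 0 to 2 at 21 °C. In a group left with 1 library, that library was assumed to vary like the others.

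Same-numbered libraries did not deviate together (correlations of -0.07 to 0.04 over 45 pairs of groups). The replicate block without other changes ended 1 call among the members, PRE1 for warming in ein3 eil1 (0.33, adjusted p 0.05, edgeR). Depth limits PIL1 and FHL, which had as few as 10 counts.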
